A study of Macaca fascicularis with 5 samples.

Results

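The genes described here encode the machinery that stores neurotransmitter in synaptic vesicles and releases it: proteins of the vesicle membrane, calcium sensors, SNARE proteins and their helpers, scaffolds of the active zone, Rab3 and its effectors, factors of dense-core vesicle priming, and proteins that retrieve the vesicle membrane. There were 42 genes on the list, in 7 groups by role, and a gene belonged to it when the deposited count table carried its symbol. Rows were found for 41 of them, with 240 transcripts, among 20576 symbols and 62655 transcripts in all; RIMS2 is not analysed here. CADPS2 was listed at 0 in every library, and the 40 others passed the filter on low counts and were tested.

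RNA came from the dorsal lateral geniculate nucleus (dLGN), the thalamic relay between retina and visual cortex, of 5 cynomolgus monkeys (Macaca fascicularis), with 1 library per animal. In the 2 deprived animals (Deprivated-316 and Deprivated-326) the lid of the left eye was closed by suture, a model of amblyopia, and the left dLGN was sequenced, on the same side as the closed eye. The 3 control animals (Control-307, Control-317 and Control-331) were untreated. By the labels all were 3 months old and the eye had been closed from month 1 to month 3, whereas the methods text dates the collection later than that age. Neither source gives a genotype, a strain or a sex for the groups. The titles put the deprived libraries and Control-317 on the left and Control-307 and Control-331 on the right, while the descriptions of the controls say that both sides were pooled.

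Release begins when an action potential opens calcium channels at the active zone, a protein-rich patch of the presynaptic membrane where vesicles wait docked. Synaptotagmins on the vesicle bind the calcium. SNARE proteins of the vesicle and the plasma membrane then zip together and fuse the membranes, with complexins and proteins of the Munc13 and RIM families setting how readily this happens. In the dLGN such terminals belong to retinal axons, to corticothalamic and brainstem axons and to local inhibitory neurons. The mRNA of an axon terminal lies mostly in its distant cell body, so that tissue from the dLGN reports chiefly on the release genes of neurons whose cell bodies lie within it.

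Library totals were 7607859 and 7391844 estimated counts in the deprived libraries against 9424975 to 12966019 in the controls. Control-317 stood apart from the other controls. Over the 14317 genes in the test (genes are not replicates), the correlation of its log2 levels was 0.849 with Control-307 and 0.872 with Control-331, and that between Control-307 and Control-331 was 0.952. With Deprivated-316 and Deprivated-326 the correlation of Control-317 was 0.873 and 0.899. That of Control-307 was 0.888 and 0.904, and that of Control-331 was 0.897 and 0.914. The labelled tissue was checked against its markers. SLC17A6, the vesicular glutamate transporter of thalamic relay neurons, had 134 and 410 CPM (counts scaled to the TMM-normalized size of each library) in the deprived libraries against 16.5, 679.6 and 68.6 CPM in the controls, which are listed throughout as Control-307, Control-317, Control-331. PPP1R1B, a phosphoprotein of striatal projection neurons, had 186 and 121 CPM in the deprived libraries against 603, 39.1 and 563 CPM in the controls. Relay markers were thus lowest, and striatal ones highest, in Control-307 and Control-331. The group means of 310 transcripts in a table of the study were matched for all 310 by dividing the libraries into Deprivated-326 with Control-317 and the remaining 3, and for 20 by the labels. Groups here follow the labels. For gene totals of the release genes, results that depend on Control-317 or on this division are given both ways. Results for single transcripts, and for the neuronal and cell type marker lists, are given by the labels only.

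Most of the release genes were higher in the deprived dLGN than in the control dLGN, but no gene passed the test. Of the 40 tested, 33 had a log2 fold change above 0 (82.5%, against 44.9% of all genes tested), and the median was 0.62, against -0.06 over all genes. With edgeR's quasi-likelihood test and Benjamini-Hochberg adjustment over all genes, 0 of the 40 had an adjusted p under 0.05, and the adjusted p ranged from 0.270 to 0.997. In simulated data this test recovered 0% of genes with an absolute log2 fold change of 1 and 25% at 2. The lack of calls therefore carries little information on changes of that size. At an unadjusted p under 0.05 there were 9 on the higher side (background 5.69%) and 0 on the lower side (background 4.07%). DESeq2 called SYN1, ERC2 and STX1A, all higher, and also DOC2A, which entered the test only through its counts in the deprived libraries. Of all genes it called 2.14%, 1.69% higher. In simulated data DESeq2 called 60 unchanged genes, against 8, 32, 37 and 43 changed ones at absolute log2 fold changes of 1, 2, 3 and 4. That is a larger share of false calls than its threshold allows. Both deprived libraries lay above all 3 controls for 16 of the 40 genes and below them for 0, against 15.2% and 15.5% of all genes tested. DOC2A is among the 33, the 9 and the 16 counted here. The p-values measure the spread between these animals. In bulk tissue, fewer cells of a type and less RNA per cell cannot be told apart.

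The controls themselves fell into different levels. The 40 genes summed to 16648 and 15157 CPM in the deprived libraries against 7309, 15784 and 7708 CPM in the controls. Control-317 thus lay within the range of the deprived libraries, and the other 2 controls well below it. Deprivated-316 held the highest value for 18 genes and Control-317 for 13, where these libraries were highest for 20.9% and 30.5% of all genes. Control-307 held the lowest value for 20 and Control-331 for 12, against 21.4% and 14.5% of all genes. The 3 left-titled libraries all exceeded both right-titled ones for 29 of the 40 genes, against 21.7% of all genes, and lay below them for 3 (SV2C, SYT2 and CPLX2), against 23.2%.

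**Figure D1:**
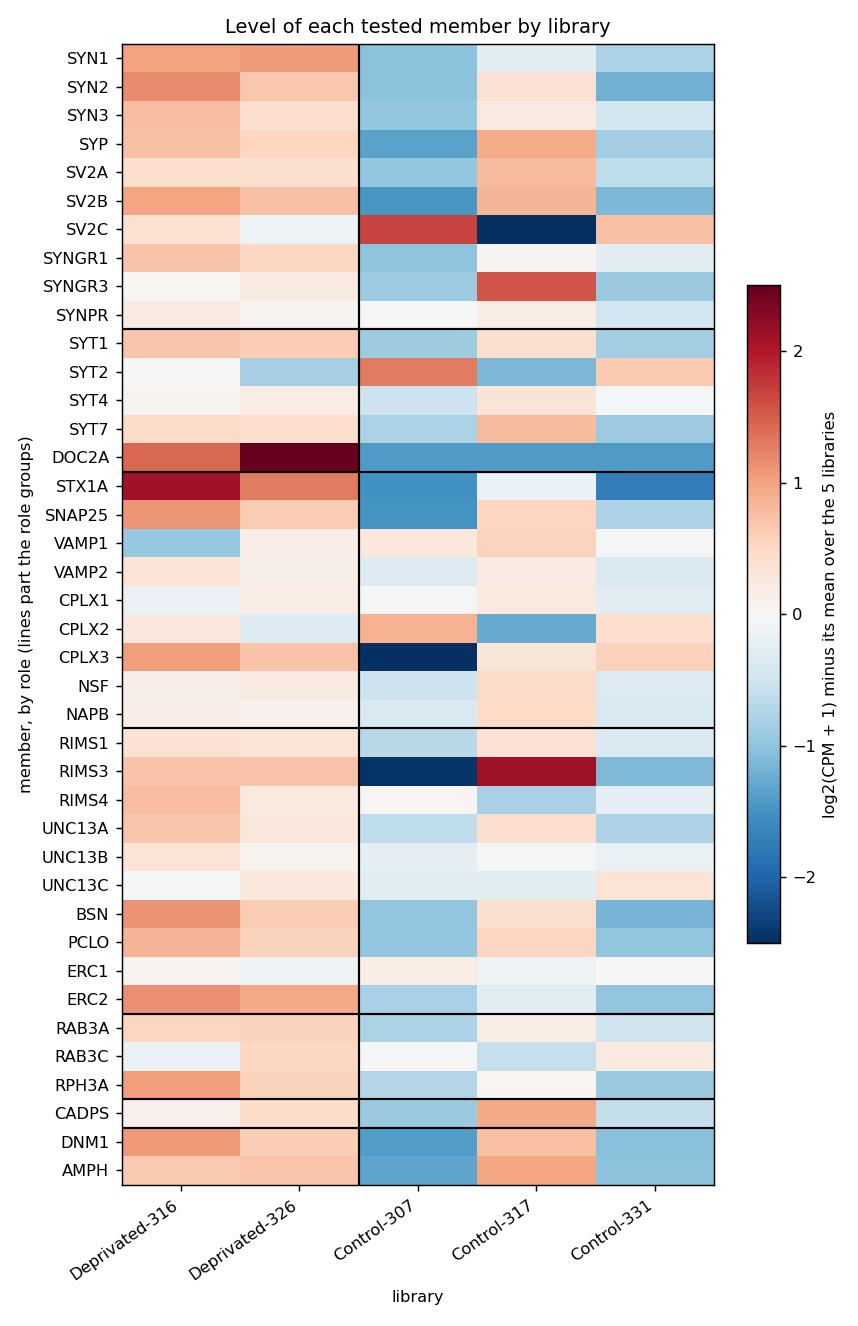
Level of each of the 40 tested release genes in each library, as log2 CPM relative to that gene's mean over the 5 libraries (colour scale), with rows grouped by role and the deprived libraries on the left. Most rows are low in Control-307 and Control-331 and high in the deprived libraries and Control-317, and SV2C, SYT2 and CPLX2 show the opposite order.

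Per length of transcript (FPKM, summed over the variants of a gene), VAMP2, the SNARE of the synaptic vesicle, was the most abundant, with a mean of 254.8 FPKM over the 5 libraries. The calcium sensor SYT1 followed with 165 FPKM, the vesicle protein SYP with 147 FPKM and the ATPase NSF, which takes spent SNARE complexes apart, with 136 FPKM. Over the libraries, neighbours in this order overlapped in range (202.5 to 305 FPKM for VAMP2, 82.4 to 231 for SYT1, 49.3 to 240.3 for SYP, 90.3 to 188 for NSF), while the highest NSF value was below the lowest VAMP2 value. VAMP2 varied least of these, and SYP most. At the low end were SYNGR1 (3.96 FPKM), SYN3 (3.56 FPKM) and DOC2A (1.36 FPKM).

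Among proteins of the vesicle membrane and its surface, the log2 fold change was above 0 for 8 of 10 (median 0.85). The synapsins tether vesicles into the reserve pool. SYN1 had 169 and 176 CPM in the deprived libraries against 40.4, 69.4 and 47.4 CPM in the controls. The lowest deprived value was above the highest control value, and the log2 fold change was 1.72 (standard error, SE, 0.28, edgeR adjusted p = 0.270). SYN2 had 524 and 366 CPM in the deprived libraries against 113, 296 and 98.9 CPM in the controls. It did not overlap either, but Control-317 lay close to the deprived libraries (log2 fold change 1.39 ± 0.54 SE, edgeR adjusted p = 0.501). SYNGR1, a synaptogyrin of the vesicle membrane, had 45.9 and 40.3 CPM in the deprived libraries against 13.4, 29.1 and 22.7 CPM in the controls (log2 fold change 0.99 ± 0.36 SE, edgeR adjusted p = 0.485).

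SYP, synaptophysin, the most abundant of these proteins per length, had 852 and 740.2 CPM in the deprived libraries against 202, 969 and 278 CPM in the controls. Control-317 was above both deprived libraries, and the log2 fold change of 0.72 (SE 0.70, edgeR adjusted p = 0.774) was about as large as its error. The SV2 glycoproteins, transporter-like proteins of the vesicle, did not share a direction. SV2A and SV2B had log2 fold changes of 0.47 and 1.07, and SV2C, the form of the striatum and other basal ganglia, one of -0.61. SV2C had 36.5 and 25.3 CPM in the deprived libraries against 91.4, 3.44 and 46.7 CPM in the controls, so that the control values enclosed the deprived ones over a wide range. SYNGR3, another synaptogyrin, had a log2 fold change of -0.30, with 54.1 and 62.5 CPM in the deprived libraries against 27.9, 159 and 27.6 CPM in the controls, the highest being Control-317. SYN3 and SYNPR, a synaptophysin relative, had values of 0.99 and 0.21.

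The calcium sensors were above 0 in log2 fold change for 4 of 5 genes, DOC2A among them (median 0.52). SYT1, the fast sensor of forebrain synapses, had 1840.1 and 1765 CPM in the deprived libraries against 611, 1502 and 629 CPM in the controls. Groups did not overlap, although Control-317 was nearer to the deprived libraries than to the other controls (log2 fold change 0.98 ± 0.46 SE, edgeR adjusted p = 0.556). SYT2, the fast sensor of brainstem and other rapidly firing synapses, had 107 and 60.7 CPM in the deprived libraries against 269.8, 49.5 and 171 CPM in the controls. Its log2 fold change was -0.96 (SE 0.72, edgeR adjusted p = 0.703), the lowest among the 40 genes, and Control-317 was below both deprived libraries.

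DOC2A, a calcium sensor of spontaneous and asynchronous release, had 6.17 and 17.5 CPM in the deprived libraries but was at 0 in all 3 controls. Against a floor of 3 counts over the control group its level was at least 128-fold higher under deprivation (edgeR adjusted p = 0.281; DESeq2 adjusted p = 1.2e-07). This was the only one of the 40 genes with a group at 0. It passed the filter on low counts through the deprived libraries alone, so that its p-values depend on the difference they test. SYT7, a slow sensor of facilitation, had a log2 fold change of 0.52, and SYT4, which lacks normal calcium binding, one of 0.16.

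Of the SNARE proteins, complexins and disassembly factors, 7 of 9 lay above 0 in log2 fold change (median 0.25). STX1A, the syntaxin of the plasma membrane, had 272 and 156 CPM in the deprived libraries against 21.2, 55.6 and 18.1 CPM in the controls. The lower deprived value was well above the highest control (log2 fold change 2.75 ± 0.57 SE, edgeR adjusted p = 0.314; DESeq2 adjusted p = 7.38e-04). SNAP25, its partner on the plasma membrane, had 408 and 291 CPM in the deprived libraries against 66.2, 273 and 109.5 CPM in the controls. Groups again did not overlap, with Control-317 just below Deprivated-326 (log2 fold change 1.22 ± 0.61 SE, edgeR adjusted p = 0.579).

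VAMP2 had 1089 and 953 CPM in the deprived libraries against 695, 993 and 671 CPM in the controls. Control-317 fell between the deprived libraries (log2 fold change 0.38 ± 0.26 SE, edgeR adjusted p = 0.683). VAMP1, the form of fast-spiking and brainstem neurons, had a log2 fold change of -0.57. The complexins, clamps of the SNARE complex, had log2 fold changes of 0.04 for CPLX1 (SE 0.25), -0.25 for CPLX2 (SE 0.64) and 0.99 for CPLX3 (SE 0.97). The disassembly factors NSF and NAPB had 0.25 and 0.16.

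**Figure D2:**
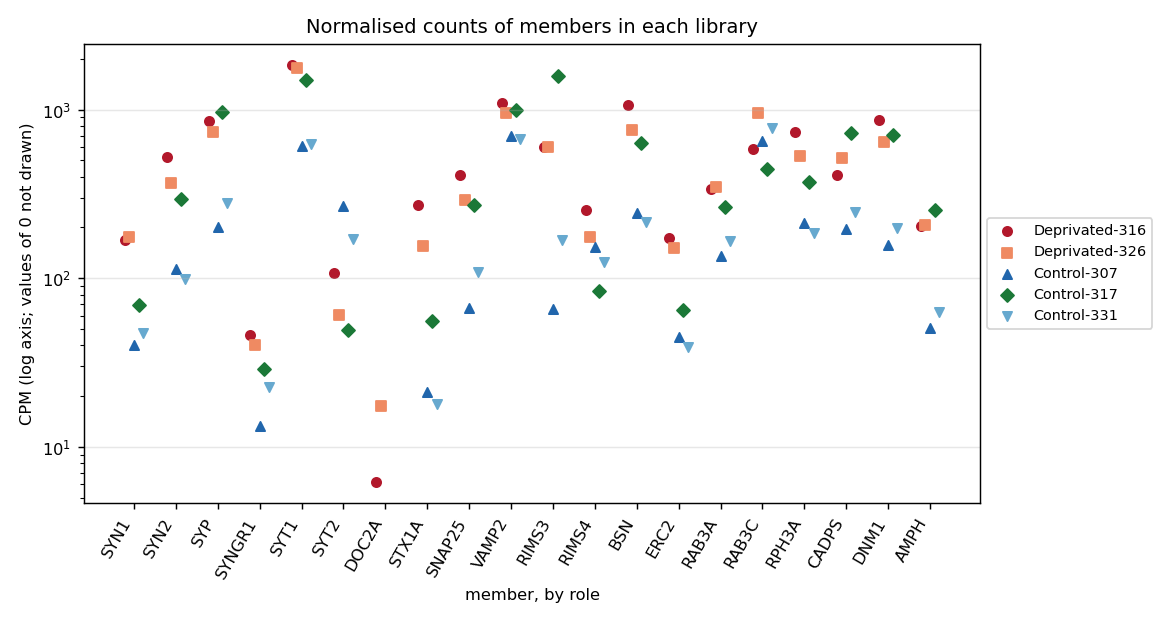
CPM of 20 release genes in each library on a log axis, in order of role, with the deprived libraries as red and orange symbols and the controls as blue and green ones; values of 0 are not drawn, so that DOC2A has 2 points. Control-317 (green diamonds) lies near the deprived libraries for SYN2, SYT1 and SNAP25, above them for SYP and RIMS3, and with the other controls for SYN1 and ERC2.

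Scaffolds and priming factors of the active zone lay above 0 in log2 fold change for 8 of 10 genes (median 0.62). ERC2, an ELKS/CAST scaffold, had 174 and 152 CPM in the deprived libraries against 44.6, 64.6 and 39.03 CPM in the controls. Like SYN1, it separated the groups with all 3 controls close together (log2 fold change 1.72 ± 0.27 SE, edgeR adjusted p = 0.270; DESeq2 adjusted p = 9.46e-05). BSN, bassoon, among the largest scaffolds of the zone, had 1065 and 757 CPM in the deprived libraries against 244, 637 and 216 CPM in the controls (log2 fold change 1.32 ± 0.53 SE, edgeR adjusted p = 0.518). Its relative PCLO, piccolo, had a log2 fold change of 1.01, and neither overlapped between the groups.

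RIMS4, a short RIM protein with a single C2 domain, had 253 and 176 CPM in the deprived libraries against 153, 84.1 and 125 CPM in the controls. Here Control-317 was the lowest library (log2 fold change 0.83 ± 0.32 SE, edgeR adjusted p = 0.506). RIMS3, the other short RIM protein on the list and the gene of this group highest per length, had 598 and 597 CPM in the deprived libraries against 65.6, 1579 and 168 CPM in the controls. The deprived libraries lay between controls that differed widely (log2 fold change -0.02 ± 1.28 SE, edgeR adjusted p = 0.997), and on log2 FPKM with limma the sign turned, to 1.13. RIMS1, the large RIM scaffold, had 0.50. The Munc13 genes UNC13A, UNC13B and UNC13C, which open syntaxin for SNARE assembly, had 0.73, 0.36 and 0.16, and ERC1, the widely expressed relative of ERC2, had -0.05 with a standard error of 0.20.

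All 3 genes of the Rab3 group had positive log2 fold changes. RPH3A, rabphilin, which binds Rab3 on the vesicle, had 739 and 529 CPM in the deprived libraries against 213, 369.7 and 186 CPM in the controls (log2 fold change 1.31 ± 0.37 SE, edgeR adjusted p = 0.399; DESeq2 adjusted p = 0.0688). RAB3A, the main small GTPase of synaptic vesicles, had 339 and 349 CPM in the deprived libraries against 135, 265 and 166 CPM in the controls (log2 fold change 0.87 ± 0.33 SE, edgeR adjusted p = 0.497). Neither overlapped between the groups. RAB3C, a relative of RAB3A, had 587 and 952 CPM in the deprived libraries against 654, 445 and 778 CPM in the controls, and overlapped (log2 fold change 0.30 ± 0.35 SE, edgeR adjusted p = 0.824).

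The remaining genes overlapped between the groups. CADPS, which primes dense-core vesicles, had 411 and 516 CPM in the deprived libraries against 197, 723 and 247 CPM in the controls (log2 fold change 0.25 ± 0.60 SE, edgeR adjusted p = 0.927). DNM1, the neuronal dynamin that cuts endocytic vesicles from the membrane, had 867 and 639.6 CPM in the deprived libraries against 157, 702 and 199 CPM in the controls (log2 fold change 1.09 ± 0.69 SE, edgeR adjusted p = 0.645). AMPH, amphiphysin, which recruits dynamin, had 203 and 208 CPM in the deprived libraries against 50.7, 255 and 62.8 CPM in the controls (log2 fold change 0.74 ± 0.73 SE, edgeR adjusted p = 0.781). For all 3 genes Control-317 lay far above the other controls, and for CADPS and AMPH above both deprived libraries.

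The calls turned on how Control-317 was treated. Without it, edgeR's quasi-likelihood test called 24 of the 40 genes, all higher in the deprived libraries, where 10.1% of all genes were called and 6.46% were called higher. Of the 40, 35 were then on the higher side (48.0% of all genes), with a median log2 fold change of 1.21, against -0.03 over all genes. The genes called came from all 7 role groups: 7 of 10 vesicle proteins, 3 of 5 calcium sensors, 3 of 9 SNARE genes, 6 of 10 active zone genes, 2 of 3 Rab3 genes, CADPS, and both DNM1 and AMPH. The 24 genes and the 3 calcium sensors include DOC2A, which passed the filter through the deprived libraries alone. The deprived libraries are then all titled left and the controls right, so that side by title and condition cannot be told apart in this comparison.

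A fit with the side of the title as a term lets Control-307 and Control-331 inform only the spread, and the fold change then rests on both deprived libraries against Control-317. The lone left-titled control is taken to vary like the other libraries, so that these p-values do not measure spread among left-titled controls. In simulated data this fit recovered 0% of genes with an absolute log2 fold change of 1 or 2, and 2.08% at 3. Genes that it did not call therefore carry little information. The calls of this fit are listed with that limit. It called 4 of the 40 genes, 3 higher and 1 lower, where 5.43% of all genes were called (3.97% higher, 1.45% lower). SYN1 (log2 fold change 1.31 ± 0.18 SE, edgeR adjusted p = 0.0376), ERC2 (1.34 ± 0.19 SE, edgeR adjusted p = 0.0376) and SV2C (3.16 ± 0.57 SE, edgeR adjusted p = 0.0493) were higher in the deprived libraries. SYNGR3 was lower (-1.45 ± 0.17 SE, edgeR adjusted p = 0.0338). In this fit 26 of the 40 genes were on the higher side, against 49.9% of all genes, the median was 0.22, and 15 genes had the other sign than by the labels alone, among them SYP, SV2A, SYT7, NSF, CADPS and AMPH. SYN1 and ERC2 were the genes called higher both by this fit and without Control-317. STX1A had 1.94 (standard error 0.38, edgeR adjusted p = 0.0542) with the side term.

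**Figure D3:**
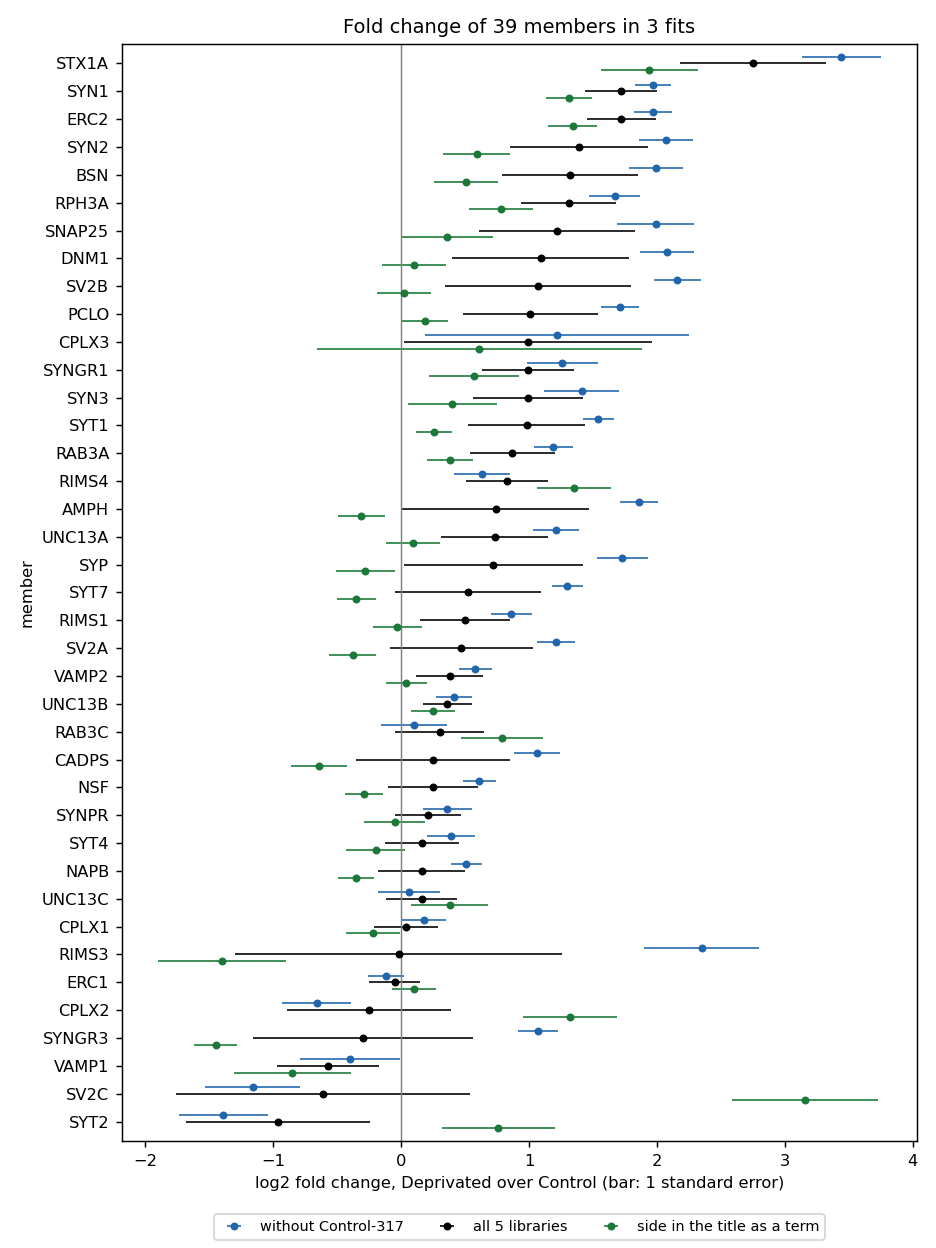
Log2 fold change of the deprived over the control libraries for the tested release genes other than DOC2A (log2 axis, bars of 1 standard error), ordered by the fit to all 5 libraries (black), with the fit without Control-317 (blue) and the fit with the side of the title as a term (green). STX1A, SYN1 and ERC2 stay above 1 in all 3 fits, and SV2C moves from -1.16 without Control-317 to 3.16 with the side term.

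With Deprivated-326 and Control-317 set against the remaining libraries, the division that the study's table follows, 34 of the 40 genes were on the higher side, against 49.1% of all genes, with a median of 0.45, and 0 were called. SYN1 and ERC2 then had log2 fold changes of 0.52 and 0.33 and STX1A one of 0.03. RIMS3 and SYNGR3, at -0.02 and -0.30 by the labels, had 1.97 and 1.60.

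Several of these families hold members that different brain regions and neuron types use in different proportions, so the balance between relatives was compared within each library, per length, as a log2 ratio of FPKM after adding 0.1. With 2 against 3 libraries an exact permutation test cannot give a two-sided p below 0.2, and the Benjamini-Hochberg value was 1.0 for each of the 7 ratios. VAMP1/VAMP2 was -5.81 and -4.48 in the deprived libraries against -3.94, -4.16 and -4.20 in the controls. It was the only ratio whose groups did not overlap (difference -1.05, exact p = 0.2). VAMP2 exceeded VAMP1 in every library.

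The other ratios varied most among the controls. SYT2/SYT1 was -4.78 and -5.53 in the deprived libraries against -1.91, -5.59 and -2.58 in the controls (exact p = 0.6). SV2C/SV2A was -4.13 and -4.63 in the deprived libraries against -1.44, -7.68 and -2.71 in the controls (exact p = 1.0). RIMS3/RIMS1 was 0.00 and 0.02 in the deprived libraries against -2.66, 1.38 and -1.71 in the controls (exact p = 0.6). In each of these Control-317 stood at one end and Control-307 at the other. CPLX1/CPLX2 showed this order too, at 1.58 and 2.52 in the deprived libraries against 1.09, 3.56 and 1.3 in the controls (exact p = 1.0). SYN2/SYN1 was 1.39 and 0.82 in the deprived libraries against 1.23, 1.85 and 0.81 in the controls (exact p = 1.0). UNC13C/UNC13A was -2.16 and -1.40 in the deprived libraries against -1.0, -2.01 and -0.25 in the controls (exact p = 0.4).

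**Figure D4:**
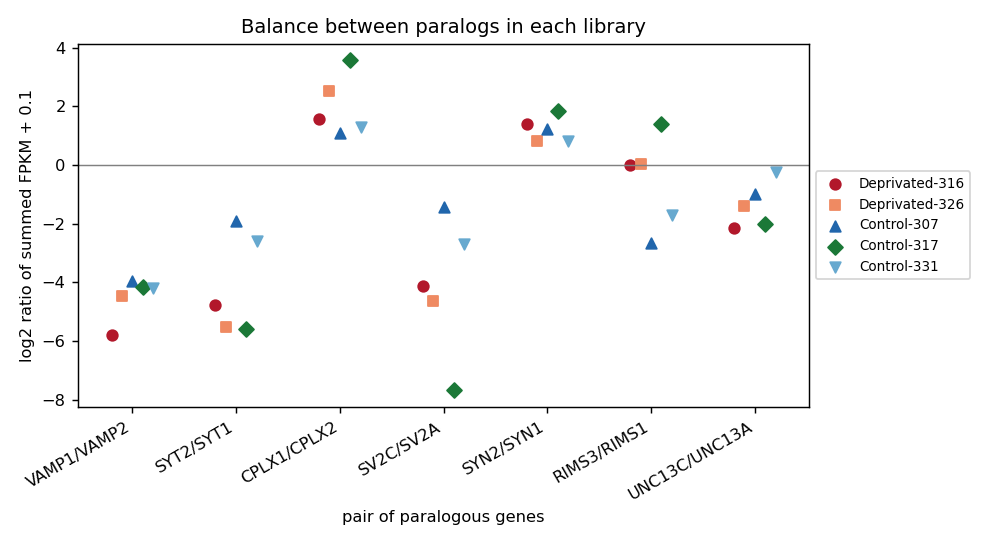
Log2 ratio of FPKM (0.1 added to each) between related release genes in each library, with the deprived libraries as red and orange symbols and the controls as blue and green ones. For SYT2/SYT1, SV2C/SV2A and RIMS3/RIMS1 Control-317 (green) and Control-307 lie at opposite ends, and VAMP1/VAMP2 is lower in both deprived libraries than in the controls.

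Single transcript variants were tested as well, as estimated by the authors; reads shared between variants make their counts less certain than gene totals. Of the 240 transcripts 159 were tested and 52 were at 0 in every library. A positive log2 fold change was found for 110 of the 159 (median 0.63), against 47.4% of all transcripts. None passed edgeR's quasi-likelihood test (smallest adjusted p = 0.549), which has little power for single transcripts in this design, so that the lack of calls carries no information, and an unadjusted p under 0.05 was found for 23 that were higher (background 3.42%) and 3 that were lower (background 2.99%). DESeq2 called 10, of which 9 were higher, against 3.06% of all transcripts called and 1.21% called higher. In simulated data it called 383 unchanged transcripts, and most of its calls there were false. Groups did not overlap for 53 that were higher and 7 that were lower (background 14.4% and 12.4%). The tested transcripts include 4 at 0 in every control library and 5 at 0 in both deprived libraries. These passed the filter through the other group alone, so that a separation of their groups is not support for a difference. UNC13B X5, RPH3A X6 and SYT1 X2 are such transcripts among the DESeq2 calls.

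Variant X21 of RIMS1 had the smallest p, with 45.2 and 44.4 CPM in the deprived libraries against 9.10, 11.9 and 11.7 CPM in the controls (log2 fold change 2.04 ± 0.28 SE, edgeR adjusted p = 0.549). It made up 13.1% and 13.4% of the counts of RIMS1 in the deprived libraries against 5.37%, 3.37% and 5.46% in the controls, a separation that the gene total of RIMS1 did not show. Variant X1 of SYN1 had 107.5 and 90.2 CPM in the deprived libraries against 20.8, 34.4 and 21.1 CPM in the controls (log2 fold change 1.96). Variant X1 of RPH3A had 409 and 232 CPM in the deprived libraries against 112, 129 and 106 CPM in the controls (log2 fold change 1.47). In both of these Control-317 lay with the other controls.

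Variant X22 of ERC2 had 30.8 and 27.8 CPM in the deprived libraries against 5.18, 10.98 and 5.82 CPM in the controls (log2 fold change 2.0), and variant X1 of STX1A, which held all counts of that gene, had 2.72. Variant X5 of UNC13B had 26.7 and 9.84 CPM in the deprived libraries but was at 0 in all 3 controls, at least 200-fold higher against the floor of 3 counts over the group; like DOC2A it passed the filter through the deprived libraries alone. All 6 had an edgeR adjusted p of 0.549 or, for ERC2, 0.557. In the other direction, variant X2 of SYT1, chosen after its values were seen, was at 0 in both deprived libraries and had 116, 2.83 and 25.5 CPM in the controls, at least 210-fold lower in the deprived group. It passed the filter through the controls alone.

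The leading variant of SYT1 (X1) made up 75.4% and 65.5% of the gene's counts in the deprived libraries against 49.3%, 42.5% and 62.1% in the controls. Wilson 95% intervals ran from 64.7% to 66.4% for the lower deprived library and from 61.0% to 63.3% for the highest control; they cover counting error only. Groups did not overlap, but the 3 controls differed among themselves by more than the gap between the groups. For DNM1 variant X5 made up 43.2% and 36.9% in the deprived libraries against 40.5%, 22.1% and 38.0% in the controls, the lowest being Control-317. NSF (variant X2) and NAPB (variant X4) overlapped between the groups, at 64.3% and 66.2% against 72.1%, 64.3% and 71.5% for NSF and at 73.8% and 64.7% against 70.4%, 65.3% and 67.7% for NAPB. SYP and CPLX1 drew on a single main variant, with 96.2% and 97.4% against 97.1%, 98.8% and 98.0% for variant X1 of SYP, and the full count for CPLX1.

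Other presynaptic genes, a list of 67 that holds calcium channels, transporters, adhesion proteins and further vesicle and active zone proteins, were described beside them. The log2 fold change was above 0 for 43 of 63 tested (median 0.20); 0 were called by edgeR, and an unadjusted p under 0.05 was found for 7 that were higher and 1 that was lower, against 5.69% and 4.07% of all genes. DESeq2 called 3, all higher, against 2.14% of all genes (1.69% higher). Without Control-317, where side goes with condition, 17 were called higher and 1 lower, against 10.1% of all genes called in either direction and 6.46% called higher, and the median was 0.27. PPFIA2, a liprin of the active zone, had 217 and 179 CPM in the deprived libraries against 92.2, 85.2 and 68.2 CPM in the controls (log2 fold change 1.27 ± 0.22 SE, edgeR adjusted p = 0.281). RIMBP2, which links RIM proteins to calcium channels, had 307.4 and 198 CPM in the deprived libraries against 98.6, 104 and 91.3 CPM in the controls (log2 fold change 1.36 ± 0.25 SE, edgeR adjusted p = 0.287). All 3 controls were close together for both genes. PHF24 had a log2 fold change of 1.17 and was called with the side term (1.3 ± 0.24 SE, edgeR adjusted p = 0.0493), and the synaptotagmin SYT17 had 1.99 (standard error 0.56, edgeR adjusted p = 0.398).

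Neuronal genes outside the synapse followed the order of the release genes in mean log2 CPM. Their mean was 8.25 and 8.23 log2 CPM in the deprived libraries against 7.30, 8.02 and 7.49 log2 CPM in the controls, and 14 of 19 were on the higher side (median 0.28). The release genes had means of 7.92 and 7.82 log2 CPM in the deprived libraries against 6.61, 7.47 and 6.78 log2 CPM in the controls. By this mean both lists were lowest in Control-307 and highest in Deprivated-316. By summed CPM the neuronal genes were highest in Control-317, with 10027 and 10007 CPM in the deprived libraries against 6035, 12037 and 6151 CPM in the controls. Markers of mature oligodendrocytes, the myelin-forming cells, were lower for 13 of 13 genes (median -0.75). Their summed levels were 6620 and 11300 CPM in the deprived libraries against 16100, 12300 and 15500 CPM in the controls. By mean log2 CPM the groups overlapped, at 7.72 and 8.51 in the deprived libraries against 9.03, 8.49 and 8.84 in the controls.

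Markers of other regions and cell types also differed between libraries, but not all in the order of the release genes. Of 18 genes that mark excitatory neurons of cortex and hippocampus, 15 were on the higher side (median 1.98), with summed levels of 3850 and 2570 CPM in the deprived libraries against 940 to 1260 CPM in the controls. Their defining transporter SLC17A7 had 44.0 and 13.7 CPM in the deprived libraries but was at 0, 0 and 2.39 CPM in the controls. Striatal markers were lower for 16 of 16 genes (median -1.32), with summed levels of 3230 and 2600 CPM in the deprived libraries against 10200, 746 and 9750 CPM in the controls. FOXP1 was on both the cortical and the striatal list. Relay neuron markers were higher for 6 of 15 genes (median -0.18), with summed levels of 594 and 1350 CPM in the deprived libraries against 261, 2460 and 418 CPM in the controls. Microglial markers (11 of 12 lower, median -0.76), astrocyte markers (10 of 12 lower, median -0.33) and endothelial and mural markers (11 of 12 lower, median -0.41) ran the other way, and the 7 choroid plexus and ependymal genes, all lower, were highest in Control-317. Markers of GABAergic neurons (8 of 15 higher, median 0.52) and of oligodendrocyte precursors (2 of 7 higher, median -0.17) went both ways. The part of these cell types in the levels of the release genes was not tested.

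**Figure D5:**
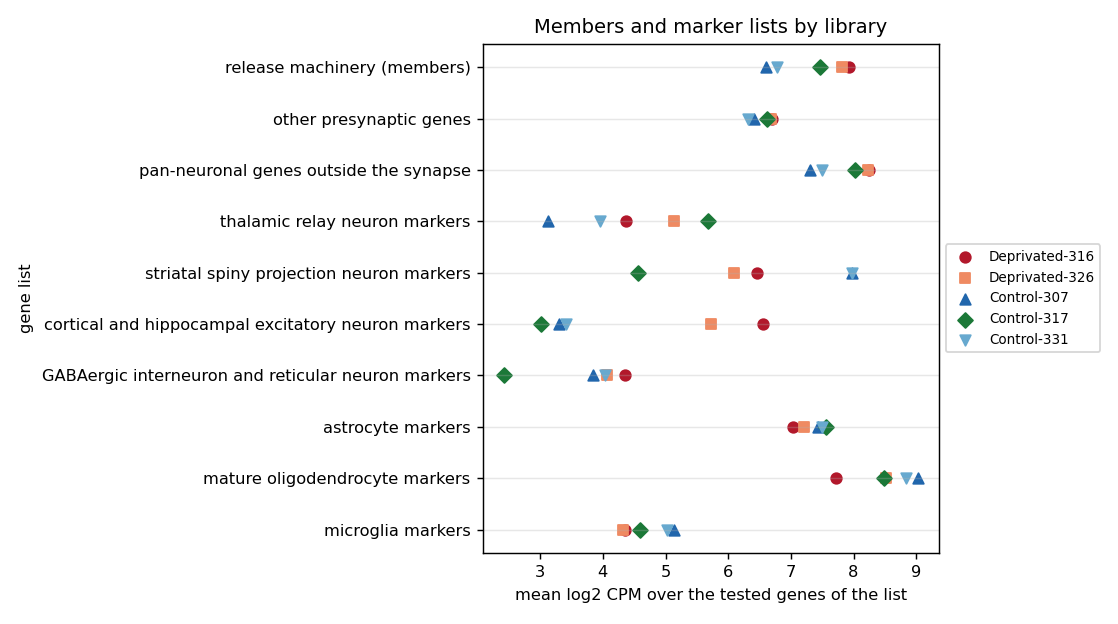
Mean log2 CPM of the release genes and of 9 of the comparison and marker lists in each library, with the deprived libraries as red and orange symbols and the controls as blue and green ones. The release genes and the neuronal genes are low in Control-307 and Control-331, striatal markers are lowest in Control-317, and cortical and hippocampal markers are higher in the deprived libraries than in all controls.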

How the data were processed

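Messenger RNA was enriched with oligo-dT beads and sequenced on an Illumina instrument. The authors filtered reads with fastp 0.18.0, aligned them with HISAT2 to Macaca_fascicularis_5.0 (the processing notes also list Bowtie2 2.2.8) and quantified transcripts with StringTie 1.3.4. The deposited values are StringTie estimated counts in a table of all libraries, and FPKM (fragments scaled to transcript length and library size) in a file per library. Whether counting used strand is not given in the sources used here, so that overlapping antisense genes cannot be told apart from their partners. A table of the authors' own comparison, with group means and fold changes, was used only to see which division of the libraries its means follow.

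Estimated counts were summed per symbol for genes, rounded, and tested with edgeR 4.0.16 (quasi-likelihood, TMM factors, filterByExpr) in R 4.3.3 over 14317 genes and 33469 transcripts. P-values were adjusted by Benjamini-Hochberg over all genes or all transcripts (threshold 0.05); the standard error is the log2 fold change over the root of F. Log2 CPM used a prior count of 2. A group at 0 was set to a floor of 3 counts over the group. A ratio of CADPS2 to CADPS was planned and could not be formed, which left 7 ratios. Alternatives were limma 3.58.1 on log2 FPKM, DESeq2 1.42.0, other factors and filters, each library left out in turn, the side in the title as a term or the left-titled libraries alone, and the study table's division. The quasi-likelihood test, with and without the side term, and DESeq2 were tried on simulated data of 2 against 3 libraries. There the quasi-likelihood test of single transcripts made no call. The other alternatives, among them the fits with a library left out, were not simulated.

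Within each role, values in every library are given for up to 3 tested genes with the smallest p and for the most abundant per length; also named are the 6 transcripts with the smallest p, the leading variant of 6 abundant genes, and 4 other presynaptic genes. SV2C and SYNGR3 are given in full besides, after their values were seen. The genes, lists and alternatives were chosen with earlier results of these data known. Depth, 7391844 to 12966019 estimated counts per library, limits low genes such as DOC2A.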

Additional observations from a re-analysis of the deposited data

How the results depend on the processing

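No paired analysis was possible because the animal numbers in the titles are shared by no groups. Over 40 genes and 14 alternatives each, 471 of 560 fold changes kept their direction and side of the threshold, 29 kept their direction and came to pass it, 0 ceased to, and 60 changed sign, of which SV2C with the side term and RIMS3 and SYNGR3 without Control-317 also came to pass it; 19 genes changed sign under no alternative. The number of genes called was 4 with DESeq2, 4 with the side term and 0 to 24 when a library was left out (24 without Control-317, where side and condition are confounded). DOC2A is among those called by DESeq2 and among those called without Control-317. DESeq2 called 10 transcripts. The median was 0.22 with the side term, 0.23 with left-titled libraries alone and 0.34 to 1.21 with a library left out. With 2 against 3 libraries, low counts and wide control spread limit single genes.

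With the side term the log2 fold change was -0.31 for AMPH, -0.64 for CADPS, -0.22 for CPLX1, 1.32 for CPLX2, 0.10 for ERC1, -0.35 for NAPB, -0.29 for NSF, -0.03 for RIMS1, -0.38 for SV2A, 3.16 for SV2C, -0.05 for SYNPR, -0.28 for SYP, 0.76 for SYT2, -0.20 for SYT4 and -0.35 for SYT7. In left-titled libraries alone it was -0.30 for AMPH, -0.64 for CADPS, -0.21 for CPLX1, 1.32 for CPLX2, 0.10 for ERC1, -0.35 for NAPB, -0.29 for NSF, -0.02 for RIMS1, -0.37 for SV2A, 3.17 for SV2C, -0.04 for SYNPR, -0.28 for SYP, 0.77 for SYT2, -0.20 for SYT4 and -0.34 for SYT7; the lone control was taken to vary like the deprived libraries. By the division of the study's table it was 1.97 for RIMS3, -0.45 for RIMS4, 1.60 for SYNGR3, -0.00 for UNC13C and 0.55 for VAMP1, and the ratio difference was 0.19 for SYN2/SYN1 and 0.33 for VAMP1/VAMP2. With limma on FPKM plus 0.1 it was -0.02 for CPLX1, 0.00 for ERC1, 1.13 for RIMS3, 0.16 for SV2C and 0.16 for SYNGR3; with 1 added, with or without the filter, -0.02 for CPLX1, 0.00 for ERC1, 1.05 for RIMS3 and 0.13 for SYNGR3. With a library left out the range was -0.07 to 1.06 for CADPS, -0.13 to 0.19 for CPLX1, -0.66 to 0.21 for CPLX2, -0.15 to 0.05 for ERC1, -0.08 to 0.61 for RAB3C, -0.55 to 2.35 for RIMS3, -1.16 to 0.30 for SV2C, -0.68 to 1.07 for SYNGR3 and -0.03 to 0.39 for SYT4. The ratio differences then ran from -0.40 to 0.85 for CPLX1/CPLX2, from -2.30 to 0.82 for SV2C/SV2A and from -0.48 to 0.09 for SYN2/SYN1. Why these signs changed was not tested.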
